A study of Homo sapiens with 2 samples.

Results

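The genes described here mark mast cells and basophils in blood and tissue, and all 10 were looked for in 1 single-cell library: *CPA3*, *TPSAB1*, *TPSB2*, *CMA1*, *HDC*, *HPGDS*, *HPGD*, *FCER1A*, *MS4A2* and *IL1RL1*. They were matched by symbol, and 9 of the 10 had a row among the 32738 genes of the matrix. *TPSB2* had none and was not analysed here. The library held nonadherent cells that CD34+ cells from iPS11, an established human induced pluripotent stem cell line, gave after 5 days in a medium that promotes the endothelial to hematopoietic transition (EHT). All cultures shared this medium, and they differed only in the surface: Uncoated, VCAM1 (an adhesion molecule), DLL4 (a Notch ligand) or DLL4+VCAM1. For each surface, 3 wells were pooled and stained with 1 of 4 hashtag antibodies (0252, 0253, 0254 or 0255). The 4 pools were then mixed into 1 library, and the sources used here do not say which hashtag marked which surface. Values are therefore given by hashtag, with no surface named.

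Mast cells and basophils are granulocytes that store histamine and proteases in granules and release them when IgE bound to the high-affinity receptor FcεRI is cross-linked. Both descend from CD34+ progenitors that express the transcription factor GATA2, and these progenitors are close relatives of those of eosinophils. Among the genes studied, *CPA3* encodes the mast cell carboxypeptidase, *TPSAB1* and *TPSB2* encode tryptases, and *CMA1* encodes chymase. *HDC* encodes the enzyme that makes histamine, *HPGDS* the hematopoietic prostaglandin D synthase, and *HPGD* the dehydrogenase that inactivates prostaglandins. *FCER1A* and *MS4A2* encode the α and β chains of FcεRI, and *IL1RL1* encodes ST2, the receptor of interleukin-33.

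After selection there were 7550 cells with 142110950 gene unique molecular identifiers (UMIs, each standing for 1 captured RNA molecule). The hashtags held between 1571 and 2136 cells, with medians of 17621 to 18769.5 UMIs per cell. Levels are given in CPM, the UMIs of a gene for every 1000000 UMIs in the cells of a group. Their intervals are exact Poisson and those of shares are exact Clopper-Pearson, both at the 95% level. These intervals cover counting error only. Those of CPM take UMIs as independent, but UMIs of 1 gene gathered in cells. The variance of UMIs per cell over their mean went from 1.10 for *MS4A2* to 4.83 for *HDC*, and was 4.69 for *TPSAB1*. CPM intervals are thus too narrow for the sampling of cells, so intervals that lie apart do not by themselves set groups apart. Cells of 1 pool are not separate cultures, so no test was made between groups of cells or between hashtags. CPM values of different genes are not corrected for gene length, and with capture at the 3′ end they count molecules.

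The stretch before the first transcription start is shown for the 5 genes with the most UMIs, since *GATA2* was among the 3 genes most like *CPA3*, *HDC* and *IL1RL1* across cells. The sequences are the 250 bases upstream of the start in RefSeq (GRCh38.p14), written 5′ to 3′ on the strand of the gene. Capitals mark the letters AGATAA or TGATAA on either strand, a GATA motif, so that TTATCT and TTATCA are the same letters read from the other strand.
CPA3, chr3:148865046-148865295, plus strand: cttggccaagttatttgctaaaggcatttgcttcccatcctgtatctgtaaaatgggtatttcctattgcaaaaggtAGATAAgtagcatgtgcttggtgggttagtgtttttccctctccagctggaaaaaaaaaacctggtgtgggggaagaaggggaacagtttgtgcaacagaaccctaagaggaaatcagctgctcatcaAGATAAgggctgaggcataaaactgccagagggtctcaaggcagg
HPGDS, chr4:94342837-94343086, minus strand: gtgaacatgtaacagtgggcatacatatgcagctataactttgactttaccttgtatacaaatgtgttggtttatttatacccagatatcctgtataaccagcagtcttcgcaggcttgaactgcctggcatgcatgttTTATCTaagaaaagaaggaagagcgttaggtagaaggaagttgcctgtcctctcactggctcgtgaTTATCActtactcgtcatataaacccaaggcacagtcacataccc
HPGD, chr4:174522894-174523143, minus strand: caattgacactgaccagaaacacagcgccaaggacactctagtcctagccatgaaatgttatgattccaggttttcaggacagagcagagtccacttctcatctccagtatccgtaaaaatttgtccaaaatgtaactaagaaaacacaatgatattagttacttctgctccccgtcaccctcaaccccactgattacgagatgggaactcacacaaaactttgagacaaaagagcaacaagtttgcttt
IL1RL1, chr2:102311313-102311562, plus strand: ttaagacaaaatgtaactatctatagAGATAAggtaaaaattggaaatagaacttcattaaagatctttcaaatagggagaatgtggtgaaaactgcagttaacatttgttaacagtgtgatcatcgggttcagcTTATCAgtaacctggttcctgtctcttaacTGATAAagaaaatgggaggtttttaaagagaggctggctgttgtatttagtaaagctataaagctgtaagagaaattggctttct
HDC, chr15:50265727-50265976, minus strand: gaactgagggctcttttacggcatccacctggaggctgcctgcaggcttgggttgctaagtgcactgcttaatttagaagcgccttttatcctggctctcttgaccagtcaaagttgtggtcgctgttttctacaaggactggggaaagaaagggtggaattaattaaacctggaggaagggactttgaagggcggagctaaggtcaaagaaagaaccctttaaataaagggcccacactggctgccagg
The *CPA3* stretch held AGATAA 173 and 45 bases before the start. That of *HPGDS* held TTATCT at 111 bases and TTATCA at 45 bases, and that of *IL1RL1* held AGATAA at 224, TTATCA at 115 and TGATAA at 85 bases. Of the genes not printed, *FCER1A* had TTATCT at 122 bases and *MS4A2* had TTATCT at 54 bases, whereas *HDC*, both starts of *HPGD*, *CMA1* and a later start of *IL1RL1* had none of these letters. Entries were found for 8 of the 10 genes, with 10 promoters among them, and 5 of these 10 promoters, each of a different gene, held the motif. Among all 35116 promoters of the table, 14.6% held it within the same length. A match describes the letters and does not show that a factor binds there.

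The 9 genes were far apart in level. *HDC* (chr15:50534144-50558162 in hg19) was the highest, with 7429 UMIs in 2314 cells, or 52.3 CPM (51.1 to 53.5). *HPGD* (chr4:175411326-175444305) had 15.1 CPM (14.4 to 15.7) in 940 cells and *IL1RL1* (chr2:102927962-102968497) had 15.0 CPM (14.4 to 15.7) in 1205 cells, and their intervals overlapped. *CPA3* (chr3:148583083-148614990) followed with 8.66 CPM (8.18 to 9.15) in 638 cells.

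*HPGDS* (chr4:95219686-95264027) had 5.38 CPM (5.00 to 5.77) in 405 cells. The remaining genes, which encode the IgE receptor chains and the granule proteases other than carboxypeptidase, were rare. *FCER1A* (chr1:159259504-159278014) had 258 UMIs in 192 cells (1.82 CPM, 1.60 to 2.05) and *TPSAB1* (chr16:1290380-1292555) had 166 UMIs in 92 cells (1.17 CPM, 0.997 to 1.36). *MS4A2* (chr11:59855734-59865940) had 37 UMIs in 35 cells and *CMA1* (chr14:24974559-24977471) had 11 UMIs in 8 cells.

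For each gene but *HDC*, most cells with the gene held a single molecule of it. Of the 2314 cells with *HDC*, 1462 had at least 2 UMIs. The median among positive cells was 2 UMIs for *HDC* and 1 UMI for each of the other 8 genes. The highest cell had 26 UMIs of *HDC*, 24 of *HPGD*, 23 of *CPA3*, 21 of *HPGDS*, 19 of *TPSAB1* and 13 of *IL1RL1*. The 10 highest cells held 38.6% of all *TPSAB1* UMIs and 11.1% of all *CPA3* UMIs, against 2.67% of all *HDC* UMIs. The level of *TPSAB1* thus rested on few cells. Its value is also uncertain because the first-numbered GENCODE transcripts of *TPSAB1* and *TPSB2* were identical at 98.6% of 1166 aligned positions, so reads of the pair can hardly be told apart.

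A UMI of at least 1 of the 9 genes was found in 3631 cells (48.1%, 47.0 to 49.2%). At least 2 genes were found in 1466 cells, at least 3 in 508 and at least 4 in 166, which was 2.20% of all cells (1.88 to 2.56%). The count of genes in a cell reached 5 in 36 cells and 6 in 11 cells, and no cell had more. The most frequent set among cells with at least 4 was *CPA3*, *HDC*, *HPGD* and *IL1RL1*, in 49 cells, followed by the same set with *HPGDS* in place of *HPGD*, in 20 cells, and by all 5 of these genes, in 16 cells. Cells with at least 4 genes had a median of 19847 UMIs and the other cells 18288.5 UMIs. When every cell was thinned to 5000 UMIs, 28 of 7482 cells (0.374%) still had at least 4 of the genes, so the count of such cells depends on depth.

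*HDC*, *HPGDS*, *TPSAB1* and *IL1RL1* were each found in a larger share of the cells with *CPA3* than of those without it. Among the 638 cells with *CPA3*, 49.1% (45.1 to 53.0%) also had *IL1RL1*, against 12.9% (12.1 to 13.7%) of the cells without *CPA3*. *HDC* was in 66.1% of the cells with *CPA3* and 27.4% of those without, *HPGDS* in 14.6 and 4.51%, and *TPSAB1* in 5.80 and 0.796%. After thinning, these shares were 22.5 and 5.81% for *IL1RL1*, 42.9 and 14.6% for *HDC*, 16.7 and 1.88% for *HPGDS*, and 5.00 and 0.456% for *TPSAB1*, each still higher in cells with *CPA3*.

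**Figure D1:**
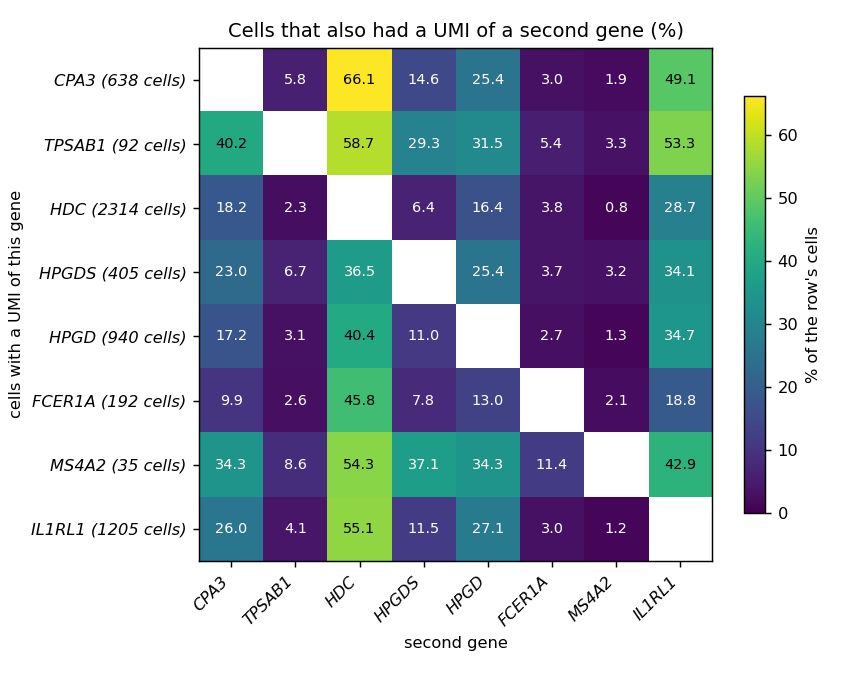
Share of the cells with a UMI of the gene in a row that also had a UMI of the gene in a column, in percent of the row's cells (color scale and printed values), for 8 of the 9 genes; *CMA1*, with 8 cells, was left out. The columns of *HDC* and *IL1RL1* hold the highest shares, and the row of *FCER1A* has 9.9% for *CPA3*, against 40.2% in the row of *TPSAB1*.

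By share of cells, the tryptase cells overlapped most with *HDC* and *IL1RL1*, but *HDC* was also frequent in the cells without *TPSAB1*. Of the 92 cells with *TPSAB1*, 49 had *IL1RL1* (53.3%, 42.6 to 63.7%), 54 had *HDC*, 37 had *CPA3* (40.2%, 30.1 to 51.0%) and 27 had *HPGDS* (29.3%, 20.3 to 39.8%). Of the cells without *TPSAB1*, 15.5% had *IL1RL1*, 30.3% had *HDC*, 8.06% had *CPA3* and 5.07% had *HPGDS*. Set against these shares, the ratio was lowest for *HDC*, at 1.94. It was 3.44 for *IL1RL1*, 4.99 for *CPA3* and 5.79 for *HPGDS*.

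The IgE receptor α chain overlapped less clearly with these genes. *CPA3* was found in 9.90% (6.06 to 15.0%) of the 192 cells with *FCER1A* and in 8.41% (7.79 to 9.07%) of those without. *IL1RL1* was in 18.8 and 15.9% of these cells, and *HPGD* in 13.0 and 12.4%, with overlapping intervals. Only *HDC*, at 45.8% (38.6 to 53.2%) against 30.3% (29.2 to 31.3%), was more frequent beyond the intervals in cells with *FCER1A* among these 4 genes. After thinning, *HDC* was in 23.3% (14.2 to 34.6%) against 15.4% (14.6 to 16.2%), and the intervals overlapped. *TPSAB1* was in 2.60% (0.851 to 5.97%) of the cells with *FCER1A* and 1.18% (0.948 to 1.46%) of those without. *FCER1A* and *MS4A2*, the α and β chains of 1 receptor, shared 4 cells, so that *MS4A2* was in 2.08% (0.570 to 5.25%) of the cells with *FCER1A* and 0.421% (0.286 to 0.597%) of those without. The β chain cells were few, but 13 of the 35 had *HPGDS*, 12 had *CPA3*, 15 had *IL1RL1* and 19 had *HDC*.

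Of the 36 pairs of genes, 24 had a share of cells with the second gene that was at least 2 times higher in cells with the first gene than in cells without it. After thinning to 5000 UMIs this held for 20 of the pairs. Pairs of other genes were not counted, so these numbers have no background to be set against. The first gene is the one named earlier in the opening list, and the order matters. The ratio was 1.94 with *TPSAB1* first and *HDC* second, and 3.22 the other way. Some pairs rest on few cells, such as *TPSAB1* and *CMA1*, with 2 shared cells, and *TPSAB1* and *MS4A2*, with 3. The pairs share cells and genes and are not independent. The same direction was seen within each hashtag for the main pair: *IL1RL1* was in 44.9, 53.4, 48.5 and 50.9% of the cells with *CPA3* in hashtags 0252, 0253, 0254 and 0255, and in 9.39, 9.26, 19.2 and 14.9% of the cells without it.

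To set these genes against CD34+ progenitors, cells were split by whether they had a UMI of *CD34* and of *GATA2*. Both were found in 2812 cells (37.2%, 36.2 to 38.3%). Of the cells with *CPA3*, 70.4% (66.7 to 73.9%) had both, and the shares were 72.4% (70.5 to 74.2%) for *HDC*, 67.1% (64.3 to 69.7%) for *IL1RL1* and 54.0% (50.8 to 57.3%) for *HPGD*. For *TPSAB1* and *FCER1A* they were 46.7% (36.3 to 57.4%) and 47.9% (40.7 to 55.2%), and *HPGDS* was the lowest of the genes with at least 100 UMIs, at 29.9% (25.5 to 34.6%), below the share in all cells.

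For *CPA3*, *TPSAB1* and *IL1RL1*, the split in CPM by *GATA2* was wider than that by *CD34*. For *HPGDS*, given below, the split by *CD34* was the wider. *CPA3* had 13.2 CPM (12.3 to 14.2) in cells with both genes and 24.5 CPM (22.1 to 27.2) in the 875 cells with *GATA2* and no *CD34* UMI. It had 1.60 CPM (1.19 to 2.10) in the 1580 cells with *CD34* alone and 1.07 CPM (0.762 to 1.47) in the 2283 cells with neither. *TPSAB1* followed the same order, with 1.05, 6.61, 0.125 and 0.0824 CPM, as did *IL1RL1*, with 24.2, 37.2, 3.13 and 1.59 CPM. The CPM of these 3 genes was thus highest in cells that had *GATA2* and no detected *CD34*. The share of cells with *CPA3* was not, at 13.8% (11.6 to 16.3%) of these and 16.0% (14.6 to 17.4%) of the cells with both genes. These intervals overlapped. The share was higher with *GATA2* alone for *TPSAB1* (4.80 against 1.53%). For *IL1RL1* it was 32.2% (29.1 to 35.4%) against 28.7% (27.1 to 30.4%), and the intervals overlapped. Cells with *GATA2* alone had a median of 15800 UMIs, against 20264 with both genes. Whether *CD34* was missed in them because of depth was not tested. After thinning, the groups were set anew in the thinned counts, with 1228 cells with *GATA2* alone and 1042 with both genes. *CPA3* was in 8.14% (6.67 to 9.82%) of the first and 7.10% (5.62 to 8.83%) of the second, with overlapping intervals. *IL1RL1* was in 18.7% (16.6 to 21.0%) and 11.3% (9.46 to 13.4%), and *TPSAB1* in 2.52 and 0.864%. Thinning can itself remove *CD34* from a cell, so these groups do not settle the question of depth.

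*HDC* differed, with 100 CPM (97.5 to 103) in cells with both genes and 55.1 CPM (51.4 to 59.0) in cells with *GATA2* alone. *HPGDS* had 19.98 CPM (17.8 to 22.4) in cells with *GATA2* alone, 5.88 CPM (5.12 to 6.72) in cells with neither gene, 3.52 CPM (3.06 to 4.03) in cells with both and 1.53 CPM (1.13 to 2.03) in cells with *CD34* alone. *HPGD* was also highest with *GATA2* alone, at 41.1 CPM (37.9 to 44.5). *FCER1A* varied least, between 1.13 CPM (0.789 to 1.56) and 2.18 CPM (1.49 to 3.08) over the 4 groups.

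Cells with many molecules of a gene showed where it was strongest. With at least 5 UMIs as the limit, chosen after the data were seen, there were 41 cells for *CPA3*, of which 20 had *CD34* and *GATA2* and 19 had *GATA2* alone. There were 4 such cells for *TPSAB1*, all with *GATA2* alone, and all 4 also had *CPA3* and *HPGDS*. Of 34 cells for *HPGDS*, 22 had *GATA2* alone, 6 had both genes, and 25 had *CPA3*. In contrast, 452 of 543 such cells for *HDC* had both genes (83.2%, 79.8 to 86.3%). The 3 cells for *FCER1A* had neither *CD34* nor *GATA2*, and all 3 held macrophage genes as defined next.

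The cells were further gated by summed UMIs of marker genes, none of which is in the list: at least 10 of *C1QA*, *C1QB* and *C1QC* (macrophage), at least 30 of *MPO*, *ELANE*, *AZU1* and *PRTN3* (neutrophil granule), at least 30 of 6 globin genes, at least 10 of 3 collagen genes (stromal), and at least 10 of *EPX* and *PRG2*. These last genes encode eosinophil peroxidase and the major basic protein, and 243 cells (3.22%, 2.83 to 3.64%) passed this gate. Of them 118 had *CD34* and *GATA2*, and 125 also passed the neutrophil granule gate. In all, 172 cells passed at least 2 lineage gates. Such cells can be droplets with more than 1 cell, which was not tested beyond the hashtag calls and Scrublet.

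The 117 cells that passed the *EPX* and *PRG2* gate alone (median 18615 UMIs) were rich in the same genes. *CPA3* was in 53.8% of them (44.4 to 63.1%), *HDC* in 86.3% (78.7 to 92.0%), *IL1RL1* in 63.2% (53.8 to 72.0%), *HPGD* in 31.6% (23.3 to 40.9%) and *HPGDS* in 25.6% (18.02 to 34.5%). The 2408 cells with *CD34* and *GATA2* that passed no lineage gate had *CPA3* in 15.0% (13.5 to 16.4%), *HDC* in 59.8% (57.8 to 61.7%) and *IL1RL1* in 29.4% (27.6 to 31.3%). In CPM, *CPA3* was at 100 (87.2 to 114) in the first group and 11.5 (10.6 to 12.5) in the second.

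In the 125 cells that passed both the *EPX* and *PRG2* and the neutrophil granule gates, *CPA3* was at 22.0 CPM (16.7 to 28.5) and *HPGDS* at 0.759 CPM (0.0920 to 2.74). These values were below those of the cells with the *EPX* and *PRG2* gate alone, where *HPGDS* was at 40.4 CPM (32.5 to 49.8). *TPSAB1* had 6 UMIs in the 117 cells and 1 UMI in the 125 cells. Of its 92 cells, 6 (6.52%, 2.43 to 13.7%) passed the *EPX* and *PRG2* gate. For *CPA3* 98 of 638 did (15.4%, 12.6 to 18.4%), and the intervals overlapped. The shares were 6.74% for *HDC*, 7.90% for *HPGDS*, 4.68% for *HPGD* and 8.80% for *IL1RL1*, against 3.22% of all cells. Most cells with each of these genes were thus outside the gate.

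**Figure D2:**
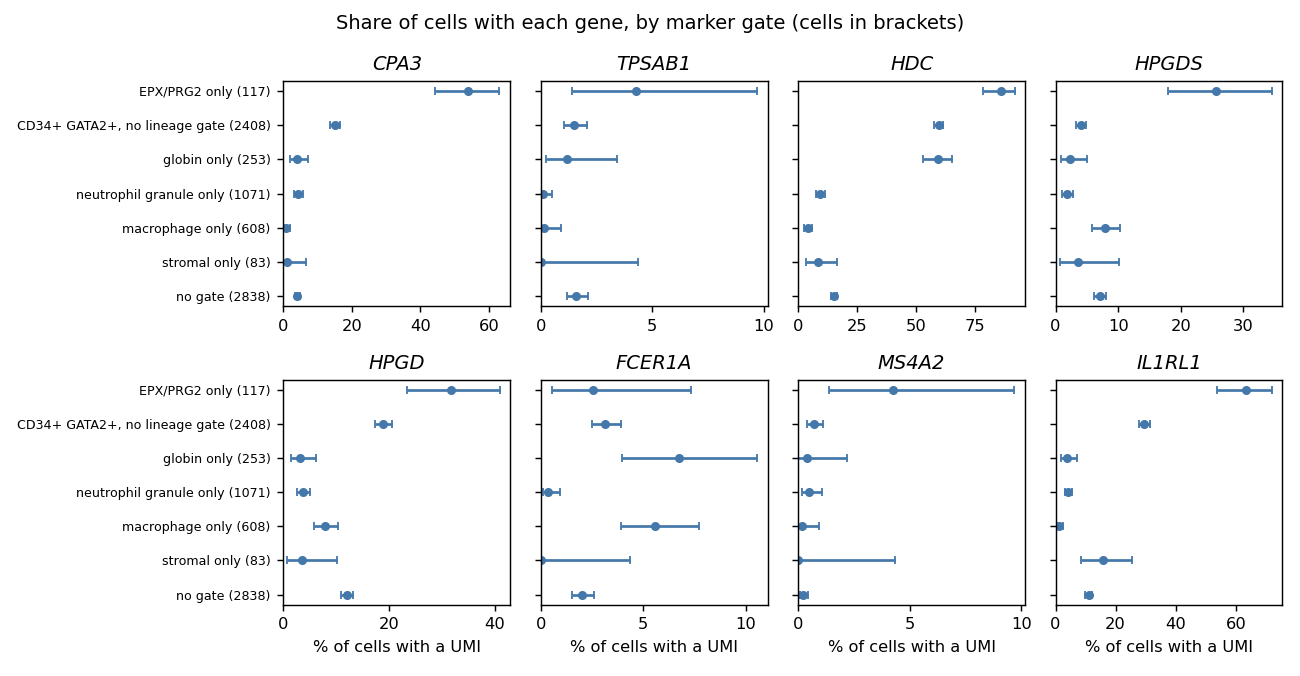
Share of cells with a UMI of each gene (percent, horizontal axis, own scale per panel) in groups of cells set by marker gates, with the number of cells in brackets; bars are exact 95% intervals for counting error. *CPA3*, *HDC*, *HPGDS*, *HPGD* and *IL1RL1* are highest in the cells with the *EPX* and *PRG2* gate alone. The points of *TPSAB1* and *MS4A2* are also highest there, from 5 cells each, with intervals that overlap those of some other groups. The points of *FCER1A* are highest in the globin and macrophage gates.

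The level of *EPX* and *PRG2* was followed in steps. *CPA3* had 4.48 CPM (4.09 to 4.90) in the 5853 cells with no UMI of either gene, 16.3 CPM (14.8 to 17.8) in the 1454 cells with 1 to 9, 71.2 CPM (60.6 to 83.1) in the 113 cells with 10 to 29 and 44.9 CPM (37.2 to 53.8) in the 130 cells with 30 or more. *HDC* followed with 40.1, 80.4, 191 and 130 CPM, and *IL1RL1* with 10.0, 28.9, 51.7 and 39.6 CPM. The values of all 3 were highest with 10 to 29 UMIs and lower in the cells with the most *EPX* and *PRG2*, although for *IL1RL1* the intervals of these last groups overlapped (42.8 to 62.0 and 32.3 to 48.0). *FCER1A* showed no such order, with 1.95, 1.43, 0.884 and 1.15 CPM and overlapping intervals. *HPGDS* was highest with 10 to 29 UMIs too, with 3.34, 10.8, 23.0 and 15.0 CPM. *HPGD*, with 11.6, 27.2, 27.0 and 16.5 CPM, and *TPSAB1*, with 0.773, 2.62, 1.77 and 1.15 CPM, were highest with 1 to 9 UMIs. For both, the intervals with 1 to 9 and 10 to 29 UMIs overlapped.

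Free RNA was not measured here, and shares in the other gates are given as a reference for it. In 608 macrophage cells (median 13049.5 UMIs) *CPA3* was in 0.822% (0.268 to 1.91%) and *IL1RL1* in 1.32% (0.570 to 2.58%). In 1071 neutrophil granule cells (median 19342 UMIs) *TPSAB1* was in 0.0934% (0.00236 to 0.519%) *CPA3* in 4.39% (3.24 to 5.79%), *IL1RL1* in 4.11% (3.00 to 5.48%) and *HDC* in 9.43% (7.75 to 11.3%). The 83 stromal cells had no *TPSAB1* or *FCER1A* UMI, and 3 counts, the limit taken for a count of 0, would be 3.61% of cells with a UMI.

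Some shares in other gates were above these values. *HDC* was in 59.3% (53.0 to 65.4%) of the 253 globin cells at 131 CPM (121 to 141), a level above that of progenitors without a lineage gate, at 96.4 CPM (93.7 to 99.1). *FCER1A* was in 6.72% (3.96 to 10.5%) of the globin cells and 5.59% (3.90 to 7.73%) of the macrophage cells, against 3.16% (2.49 to 3.93%) of those progenitors. The globin cells were deeper (median 19776 UMIs) than the macrophage cells. In CPM, *FCER1A* had 3.85 (2.35 to 5.94) in globin cells, 6.59 (5.00 to 8.51) in macrophage cells and 1.98 (1.61 to 2.41) in those progenitors. After thinning it was in 1.99% (0.650 to 4.59%), 3.14% (1.90 to 4.86%) and 0.955% (0.606 to 1.43%) of them. The intervals of the globin cells and those progenitors then overlapped. *HPGDS* was in 7.89% (5.88 to 10.3%) of the macrophage cells, against 1.77% (1.07 to 2.76%) of the neutrophil granule cells. *IL1RL1* was further found in 15.7% (8.61 to 25.3%) of the stromal cells.

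The 166 cells with at least 4 genes were then described by genes outside the list. Of them, 112 had *CD34* and *GATA2* (67.5%, 59.8 to 74.5%), against 36.6% (35.5 to 37.7%) of the other cells, and 159 had *GATA2*. This contrast was not seen when the members were counted after thinning and *CD34* and *GATA2* in all UMIs. Then 28 cells had at least 4 members, and 35.7% of them (18.6 to 55.9%) had *CD34* and *GATA2*, while all 28 had *GATA2*. These 28 were a smaller choice of cells with a median of 11764 UMIs, against 19847 for the 166. Depth and the choice of cells cannot be told apart here. The *EPX* and *PRG2* gate took 35 of them (21.1%, 15.1 to 28.1%), against 2.82% (2.45 to 3.22%) of the other cells, and 21.4% (8.30 to 41.0%) of the 28. None passed the macrophage, globin or stromal gate, and 3 counts, the limit taken for a count of 0, would be 1.81% of them. Of the 166 cells, 3 passed the neutrophil granule gate. Seen from the other side, these 166 cells were 3.98% (3.29 to 4.77%) of all cells with *CD34* and *GATA2* and 14.4% (10.2 to 19.5%) of all cells in the *EPX* and *PRG2* gate.

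**Figure D3:**
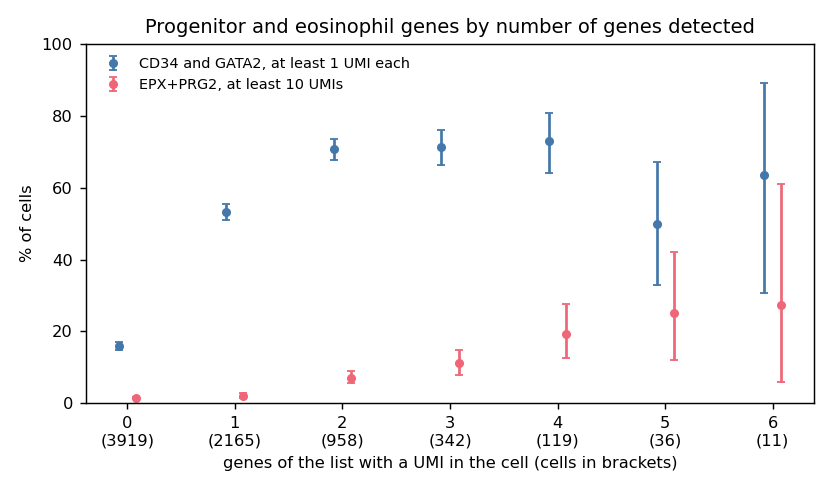
Share of cells (percent) with *CD34* and *GATA2* (blue) and with at least 10 UMIs of *EPX* and *PRG2* (red), by how many of the 9 genes had a UMI in the cell, with the number of cells in brackets and exact 95% intervals. The first share goes from 16.0% with none of the genes to 73.1% with 4, and is 50.0% with 5 and 63.6% with 6. The second goes from 1.45% with none to 19.3% with 4. Among cells with at least 4 genes after thinning, the first share was 35.7%.

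Because at least 4 genes of the list chose these cells, the genes of the list had to be higher in them. No comparison of these genes with the other cells is drawn. Of 13482 genes with at least 100 UMIs, 2.39% were at least 2 times higher by CPM in the 166 cells than in all others and 9.69% were at most 0.5 times as high. All genes had a median ratio of 0.974. The genes below come from lists set by the role of the genes, with earlier results of these data known.

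Of the eosinophil list, 6 of 8 genes with enough UMIs were at least 2 times higher and 2 were at most 0.5 times as high, with a median ratio of 4.03. *CLC*, which encodes the Charcot-Leyden crystal protein of eosinophils and basophils, was 14.6 times higher (14.2 to 15.1), at 1710.5 against 117 CPM. *IL5RA*, the interleukin-5 receptor α chain, was 15.8 times higher (11.7 to 21.0). *PRG2* was 5.64 times (5.08 to 6.24), *PRG3* 4.41 times (4.11 to 4.72), *EPX* 3.65 times (3.41 to 3.91) and *SIGLEC8* 3.41 times higher (1.78 to 6.003). The 35 cells in the *EPX* and *PRG2* gate held 854 of 924 *PRG3* UMIs and 688 of 901 *EPX* UMIs behind these ratios. In the other 131, *PRG3* was at 26.1 CPM (20.3 to 33.0) and *EPX* at 79.4 CPM (69.1 to 90.8). Cells with fewer than 4 members had 63.0 and 74.2 CPM, but 208 of them passed the gate. The 131 lie outside it by choice, so these levels cannot be compared. By share of cells the 131 were higher. *EPX* was in 54.2% (45.3 to 62.9%) against 16.6% (15.8 to 17.5%) of the cells with fewer than 4 members. *PRG3* was in 24.4% (17.3 to 32.7%) against 12.3% (11.6 to 13.1%). The ribonuclease genes *RNASE2*, at a ratio of 0.278 (0.227 to 0.337), and *RNASE3*, at 0.0742 (0.0153 to 0.217), were lower.

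Of the granule and mediator list, 3 of 14 genes were at least 2 times higher and 1 was at most 0.5 times as high (median ratio 1.43). *SLC18A2*, the vesicle transporter that loads amines such as histamine into granules, was 6.51 times higher (5.63 to 7.50) and *ALOX5AP*, a partner of 5-lipoxygenase, 3.51 times (3.17 to 3.87). *PTGS2* had a ratio of 2.13 with an interval that includes 1 (0.960 to 4.14). A further 4 genes of the arachidonic acid and granule machinery were between 1.5 and 2 times higher: *ALOX5* at 1.96 (1.60 to 2.37), *PTGS1* at 1.84 (1.59 to 2.11), *CD63* at 1.58 (1.53 to 1.63) and *LTC4S* at 1.53 (1.18 to 1.96). *GZMB* had no UMI in the 166 cells.

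The signalling genes below the IgE receptor hardly differed as a list, with a median ratio of 1.05, and 1 of 14 was at least 2 times higher. This was *GRAP2*, an adaptor, at 7.24 times (5.46 to 9.46). *FCER1G*, the γ chain that FcεRI shares with other receptors, had 344 against 236 CPM, a ratio of 1.46 (1.38 to 1.55). *LYN* and *SYK*, the kinases next to the receptor, were at 0.760 (0.648 to 0.886) and 0.750 (0.624 to 0.895), and the adaptor gene *LAT2* at 0.400 (0.288 to 0.542).

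Of the surface receptor list, 6 of 11 genes were at least 2 times higher and 2 at most 0.5 times as high, with a median ratio of 2.04. Apart from *IL5RA* and *SIGLEC8*, these were *PTGDR2*, a prostaglandin D2 receptor, at 3.49 (2.51 to 4.75), *CSF2RB*, the shared β chain of the interleukin-3, interleukin-5 and GM-CSF receptors, at 3.16 (2.80 to 3.56), *IL18R1*, an interleukin-18 receptor chain, at 2.11 (1.46 to 2.96) and *ADORA3*, an adenosine receptor, at 2.04 (1.45 to 2.79). *KIT*, the receptor of stem cell factor that mast cells retain, had a ratio of 1.93 (1.45 to 2.53) and was found in 20.5% of the 166 cells. *IL3RA* was lower, at 0.488 (0.321 to 0.711).

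Several defining markers of mature mast cells and basophils were at or near 0, and others were in a minority of the 166 cells. *MRGPRX2*, a receptor of skin mast cells, had 1 UMI in the whole library's selected cells and *ENPP3*, the basophil marker CD203c, had 5, none of them in the 166 cells. *TPSD1* had 1 UMI and *TPSG1* had 4, of which 2 were in 1 of the 166 cells. *CMA1* was in 1 of the 166 cells, *MS4A2* in 16 (9.64%), *FCER1A* in 17 (10.2%) and *TPSAB1* in 35 (21.1%), although these 4 genes were among those that chose the cells. The 166 cells are described by the genes they held and are not called mast cells or basophils.

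Among 14 transcription factors, 4 were at least 2 times higher and none was at most 0.5 times as high. *MITF*, required for mast cells, was 4.34 times higher (3.40 to 5.47), *LMO4* 3.98 times (3.87 to 4.10), *GATA2* 3.82 times (3.61 to 4.03) and *IKZF2* 2.90 times (2.51 to 3.33). *GATA1* followed at 1.58 (1.41 to 1.76). *CEBPA* was at 0.833 (0.672 to 1.02), and *SPI1* at 0.619 (0.573 to 0.668).

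Most marker genes of other lineages were lower in these cells. All 3 macrophage, all 4 neutrophil granule and all 3 stromal genes were at most 0.5 times as high, with median ratios of 0.0445, 0.109 and 0.0973, as were 7 of 8 erythroid genes (0.0435) and 2 of 5 megakaryocyte genes (0.647). *ITGA2B*, a platelet integrin chain, and *KLF1*, an erythroid transcription factor, were not lower, with ratios of 1.01 (0.887 to 1.14) and 0.972 (0.704 to 1.31). The neutrophil granule genes were all lower in level, but not all in the share of cells with a UMI. This share was 72.3% against 72.6% for *MPO*, 51.8% against 53.6% for *PRTN3* and 25.9% against 25.4% for *AZU1*. For *ELANE* it was lower, at 0.602% (0.0153 to 3.31%) against 5.35% (4.85 to 5.89%). The 6 cell cycle genes had ratios with a median of 1.14. *CD34* itself hardly differed in level, with 123 and 116 CPM (ratio 1.06, 0.959 to 1.17). It was in a larger share of cells, at 71.1% (63.6 to 77.8%) against 57.9% (56.7 to 59.0%).

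**Figure D4:**
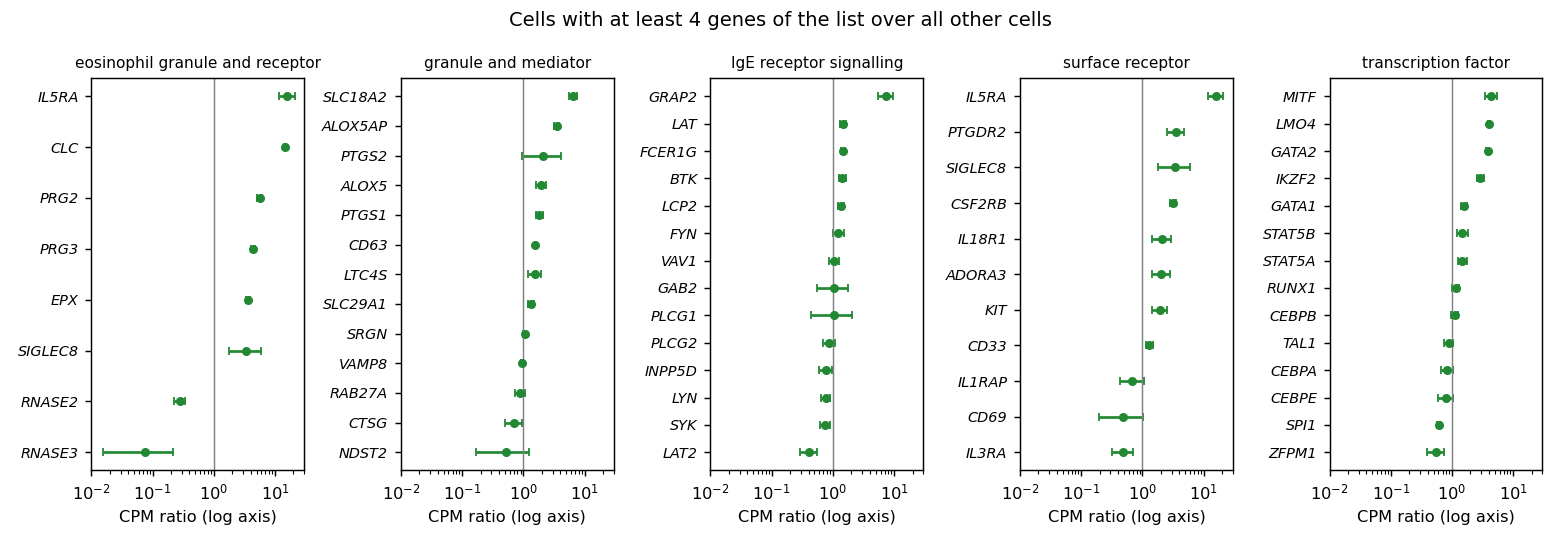
CPM of each gene in the 166 cells with at least 4 genes of the list over its CPM in all other cells (log axis; grey line at 1), for the genes with at least 100 UMIs in 5 lists, with exact 95% intervals. *GZMB*, with no UMI in the 166 cells, is not drawn. *IL5RA*, *CLC*, *GRAP2* and *SLC18A2* lie farthest to the right in their lists, and *RNASE3* and *LAT2* lie on the left.

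The 10 genes outside the list with the highest ratio were *UTS2*, *LIF*, *CDK15*, *IL5RA*, *CLC*, *OSM*, *FST*, *C1orf186*, *LINC00323* and *ADCYAP1*. *LIF* and *OSM*, a pair of related cytokines, were 39.99 times (28.3 to 56.4) and 13.1 times (8.26 to 20.3) higher, from 69 and 28 UMIs in the 166 cells. *FST*, which encodes the activin-binding protein follistatin, was 12.5 times higher (11.3 to 13.7) and *C1orf186* 12.2 times (11.0 to 13.5). *C1orf186* was in 63.3% of the 166 cells and 10.1% of the others. All but *UTS2* were higher in all 4 hashtags. *UTS2*, the urotensin gene, had no UMI in the 33 cells with at least 4 genes of hashtag 0255, against 2.04 CPM (1.55 to 2.65) in its other cells. In the other 3 hashtags *UTS2* was higher. It had the highest ratio, 65.0 times (54.0 to 78.3), but a single cell held 165 of its 299 UMIs. A single cell also held 160 of the 588 UMIs of *FST*.

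The 35 cells in the *EPX* and *PRG2* gate and the other 131 are set side by side as a description, since genes of the list chose all 166. The 35 had *CPA3* at 239 CPM (203 to 280) against 104 (92.2 to 117), and *HDC* at 351 (306 to 399) against 184 (168 to 201). *HPGDS* had a ratio of 1.37 (1.03 to 1.80), *IL1RL1* 1.29 (1.01 to 1.64) and *HPGD* 1.19 (0.881 to 1.58). *TPSAB1* went the other way, at 7.76 CPM (2.52 to 18.1) against 30.2 (24.0 to 37.5), a ratio of 0.257 (0.0812 to 0.624), and 1 of the 131 cells held 19 of their 81 UMIs. The 166 cells were chosen by these genes, so each of these differences, the low *TPSAB1* in the gated cells included, can follow from the choice. Over all cells, *TPSAB1* had 2.73 CPM (1.001 to 5.93) in the cells with the *EPX* and *PRG2* gate alone, 1.02 CPM (0.759 to 1.34) in progenitors with no lineage gate and 2.00 CPM (1.62 to 2.43) in cells with no gate.

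Genes outside the list split the 2 sets further. *CLC* was at 7718 against 267 CPM, *IL5RA* at 59.0 (41.7 to 80.9) against 10.8 (7.24 to 15.5) and *C1orf186* at 330 against 100 CPM. *KIT* was lower in the *EPX* and *PRG2* cells, at 4.65 (0.960 to 13.6) against 19.8 CPM (14.8 to 25.9), as was *CD34*, at 60.5 (43.0 to 82.7) against 138 (125 to 153). *GATA2* was found in 33 of the 35 and 126 of the 131 cells.

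Across all 7550 cells, the genes most like each member were listed by Pearson's r of log-normalized values, as a description only, since the cells share 1 library and differ in depth. For *CPA3* they were *C1orf186* (0.432), *SLC18A2* (0.334) and *GATA2* (0.325), and for *IL1RL1* *GATA2* (0.457), *TESPA1* (0.411) and a gene known only by a clone name (0.381). For *HDC* they were *GATA1* (0.498), *GATA2* (0.490) and *CKB* (0.469), and for *HPGDS* *C1orf186* (0.301), *FST* (0.272) and *DBI* (0.253). *HPGD* went with *IGLL1* (0.307), *ITM2A* (0.297) and *TRIB2* (0.293). *FCER1A* had the weakest values, with *SYT4* (0.162), *FCGR2B* (0.153) and *HLA-DPB1* (0.136). *TPSAB1*, *MS4A2* and *CMA1* were in fewer than 100 cells and were left out.

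Levels were then set side by side by hashtag. Of the 7 genes with at least 100 UMIs, 4 had a highest hashtag at least 1.5 times above the lowest, while 17.0% of 13489 genes did. The median ratio was 1.87 for the 7 genes and 1.17 for all genes. Rare genes reach such ratios more easily by counting error, and each hashtag is 1 pool, so that the surface and any other difference between the pools cannot be told apart.

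*HPGD* had the widest spread, at 5.74 CPM (5.03 to 6.53) in hashtag 0252, 5.43 (4.72 to 6.22) in 0253, 22.4 (20.9 to 24.0) in 0254 and 32.4 (30.3 to 34.6) in 0255. The highest was 5.96 times the lowest (5.13 to 6.96), and the hashtags formed a low and a high pair. Within the cells with *CD34* and *GATA2* the values were 8.10, 8.11, 29.4 and 37.8 CPM, in the same 2 pairs. In all other cells they were 3.87, 3.64, 16.5 and 29.5 CPM.

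*IL1RL1* had 11.2 (10.2 to 12.2), 11.6 (10.5 to 12.7), 22.3 (20.8 to 23.9) and 16.2 CPM (14.8 to 17.8) in the same order, with the highest 2.00 times the lowest (1.78 to 2.25). The same 2 hashtags as for *HPGD* were higher. In cells with *CD34* and *GATA2* the spread was smaller, from 20.3 to 29.8 CPM, a ratio of 1.47 (1.28 to 1.69). In all other cells it was wider, with 3.91, 4.47, 16.0 and 11.4 CPM.

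*TPSAB1* had 0.866 (0.603 to 1.20), 0.416 (0.238 to 0.676), 2.45 (1.96 to 3.03) and 1.05 CPM (0.710 to 1.502), from 35, 16, 85 and 30 UMIs. Hashtag 0254 was 5.89 times hashtag 0253 (3.42 to 10.8), and its interval lay above those of the other 3. It held 49 of the 92 positive cells. *HPGDS* was also highest in hashtag 0254, at 7.40 CPM (6.53 to 8.37), against 3.96 (3.37 to 4.62) in 0252, 4.94 (4.26 to 5.69) in 0253 and 5.50 (4.68 to 6.44) in 0255, a ratio of 1.87 (1.53 to 2.29) between the highest and the lowest. Within the cells with *CD34* and *GATA2* it had 2.85, 4.28, 4.67 and 1.71 CPM, so that 0255 became the lowest, and the ratio was 2.73 (1.59 to 4.93).

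*HDC*, *CPA3* and *FCER1A* were closer together under the limits used. *HDC* had 51.8 (49.6 to 54.1), 53.6 (51.3 to 56.0), 60.6 (58.0 to 63.2) and 41.1 CPM (38.8 to 43.5), with hashtag 0254 at 1.47 times 0255 (1.37 to 1.58). *CPA3* had 9.97 (9.02 to 11.0), 8.63 (7.73 to 9.61), 8.44 (7.50 to 9.47) and 7.08 CPM (6.14 to 8.13), with neighbors whose intervals overlapped and a ratio of 1.41 (1.19 to 1.68). With a mitochondrial limit of 10%, which kept 736 cells, that ratio was 7.12 (2.59 to 27.3). *FCER1A* had 2.10, 1.74, 1.64 and 1.72 CPM, with a ratio of 1.28 whose interval includes 1 (0.905 to 1.82), and 1.78 (1.02 to 3.15) within the cells with *CD34* and *GATA2*. *MS4A2*, with 8, 13, 10 and 6 UMIs, and *CMA1*, with 2, 1, 3 and 5, were too rare for differences to be detectable.

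**Figure D5:**
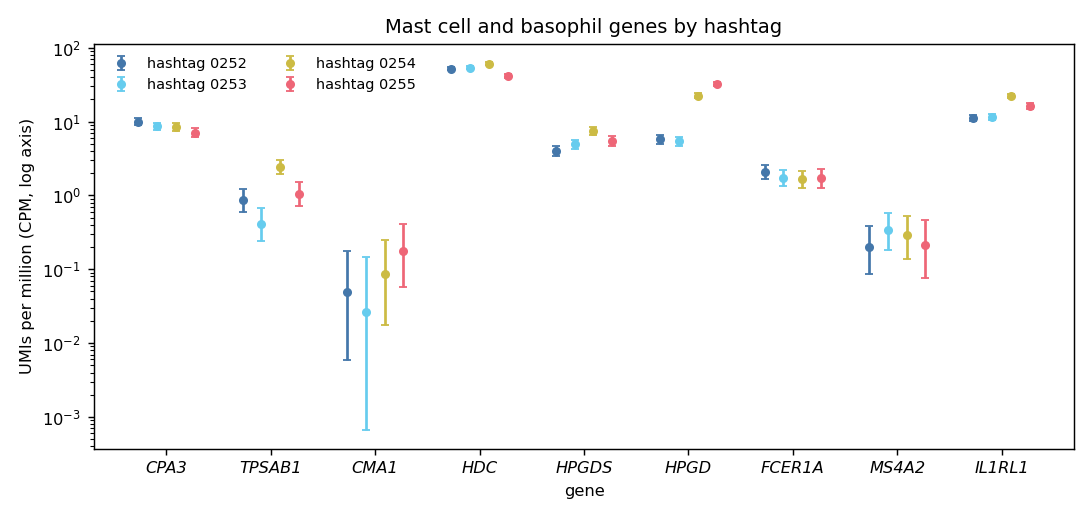
CPM of the 9 genes in each hashtag (log axis), with exact Poisson 95% intervals; each point is 1 pool of 3 wells. *HPGD* lies at 5.43 to 5.74 CPM in hashtags 0252 and 0253 and at 22.4 to 32.4 CPM in 0254 and 0255, whereas *FCER1A* and *MS4A2* overlap across all 4.

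The cells with at least 4 of the genes did not differ between hashtags beyond counting error. They were 2.11% (1.54 to 2.81%) of hashtag 0252, 1.95% (1.39 to 2.66%) of 0253, 2.65% (1.97 to 3.49%) of 0254 and 2.10% (1.45 to 2.94%) of 0255, with overlapping intervals. Cells with at least 1 gene were 43.4, 42.9, 56.8 and 50.9%, higher in 0254 and 0255. The *EPX* and *PRG2* gate held 4.40, 4.41, 2.11 and 1.40% of these hashtags, so it was more frequent in 0252 and 0253. Cells with *CD34* and *GATA2* were 38.8, 36.3, 42.0 and 30.7%.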

How the data were processed

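Single-cell RNA sequencing (10x Chromium, 3′ capture v3.1) was made of 1 pool of 4 hashtagged cultures. The authors deposited raw counts of UMIs for 32738 genes in 10836 barcodes, aligned to hg19 with Cell Ranger 6.0.1 per the submitters' processing notes, and a call for each barcode of 1 hashtag, a doublet or a negative. These calls served as deposited in place of a doublet caller, and Scrublet (expected rate 6%) served as an alternative.

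Cells with 1 hashtag and at most 36000 UMIs, 6000 genes and 18% mitochondrial UMIs were kept (7550, with 142110950 UMIs). There was 1 library without replicates, so no p-values were computed. Intervals cover counting error only. Ratios of CPM carry an exact conditional binomial interval, which also takes UMIs as independent and is too narrow where a few cells hold many. Thinning drew 5000 UMIs from each cell (fixed seed) and left out 68 cells with fewer. Correlations used counts scaled to 10000 per cell and log-transformed.

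The genes and lists were chosen with earlier results of these data known. Besides the 10 members and the lists, the text names the 3 genes most like each member found in at least 100 cells, by Pearson's r among genes in at least 100 cells, and the 10 genes with the highest CPM ratio in cells with at least 4 members. The GATA motif and the limit of 5 UMIs were chosen after the data were seen. Gene positions are from GENCODE lifted to hg19. The ratio, correlation and thinning steps were tested on simulated data. Python 3.11.15, numpy 2.4.6, scipy 1.17.1, pandas 2.3.3 and scanpy 1.11.5 were used. Alternatives were other limits on cells and genes, other detection limits and folds, Scrublet and thinning. CPM without mitochondrial UMIs, and members counted in thinned cells with other genes in all UMIs, were added after seeing the data.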

Additional observations from a re-analysis of the deposited data

Results flagged for a closer look

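Barcodes that the comparisons did not use also held these genes. Of 809 barcodes called negative for hashtags and within the limits on UMIs, genes and mitochondrial UMIs, 32 (3.96%, 2.72 to 5.54%) had at least 4 of the genes, and 599 (74.0%) had at least 1. *HDC* was at 118 CPM (112 to 124) and *CPA3* at 19.2 CPM (16.9 to 21.8) in these barcodes, against 52.3 and 8.66 CPM in the cells used. Of 834 barcodes called doublets and within the limits, 30 (3.60%, 2.44 to 5.10%) had at least 4 of the genes, at a median of 22004 UMIs per barcode, with *HDC* at 54.6 and *CPA3* at 8.94 CPM. In cells with a single hashtag the share was 2.20% (1.88 to 2.56%). The interval of the negative barcodes (median 15601 UMIs) lay above this, and that of the doublets overlapped it. The hashtag calls themselves were not examined further.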

How the results depend on the processing

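A mitochondrial limit of 10% kept 736 cells, and 9 of them (1.22%) had at least 4 genes, of which 33.3% had *CD34* and *GATA2* and 11.1% passed the *EPX* and *PRG2* gate. Under this limit 7 members were at least 1.5 times apart between hashtags, *TPSAB1* among them with no ratio because 1 hashtag lacked it. So were 2780 of all genes with at least 100 UMIs, more than the 2291 under the limits used, though fewer genes had enough UMIs. Of 9019 such genes outside the list, 551 were at least 2 times higher in the 9 cells. Thinning gave 0.374% of cells with at least 4 genes, of which 10.7% had *CD34* and *GATA2* and 0% passed the gate, since all genes were thinned. With members counted in thinned cells and other genes in all UMIs, these shares were 35.7% (18.6 to 55.9%) and 21.4% (8.30 to 41.0%) of 28 cells. Requiring 2 UMIs per member gave 0.344% of cells. With at least 5 members, 53.2% had *CD34* and *GATA2*, and with 2 UMIs each of these genes 47.6% did. The *EPX* and *PRG2* share was 14.4% with at least 3 members, 41.6% with a gate of 5 UMIs and 8.43% with a gate of 30. The genes at least 2 times higher numbered 322, and 185 with at least 3 members, 831 with at least 5, 828 with genes of at least 20 UMIs, 115 with 500 UMIs and 104 at a fold of 3. Those at least 1.5 times apart between hashtags numbered 2291, and 875 with 500 UMIs and 905 at a fold of 2. Removing Scrublet doublets (63 of the cells kept, none with at least 4 genes) or the limits on UMIs and genes changed no result beyond its counting interval or 1.5 times. The hashtag with the highest *HPGDS* changed from 0254 to 0252, the lowest under the limits used, with the mitochondrial limit of 10%. That of *FCER1A* changed from 0252 to 0255 with this limit and to 0253 in cells with *CD34* and *GATA2*, where that of *HDC* changed from 0254 to 0253. No paired analysis was possible because the labels give 1 pool per surface and no replicates. Depth limits what can be seen of *MS4A2* and *CMA1*.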
